A study of Homo sapiens with 6 samples.

Results

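The 54 genes described here encode the DNA replication machinery and the E2F factors that control it, from the origin recognition complex to the enzymes that make deoxynucleotides. They were chosen by name from a list of symbols, with earlier results of these data known. Each symbol has 1 row among the 58735 genes of the count table, and all 54 genes passed the filter on low counts. Poly(A) RNA was sequenced from Panc-1, an epithelial cell line derived from a human pancreatic tumour, with the genotype label WT. Cells of 3 libraries shared their culture for 72 h with CAF, which are fibroblasts of tumour origin (the columns of this group are headed CAF-NC, with NC not explained). The remaining 3 libraries are of Panc-1 kept for 72 h beside CAF overexpressing PAI-1, a secreted protease inhibitor, by a means that the labels do not give. Both groups thus had fibroblasts present, and no library of Panc-1 cultured alone was analysed here. The comparison asks what a fibroblast partner with more PAI-1 does to Panc-1, and here how the replication genes respond.

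Chromosomal replication is prepared in G1, when the origin recognition complex (ORC), CDC6 and CDT1 load the MCM2-7 helicase onto DNA, a step that geminin (GMNN) blocks by binding CDT1. In S phase the DBF4-dependent kinase CDC7 and cyclin-dependent kinases turn the loaded helicase, with CDC45 and the GINS complex, into an active fork. Transcription of most of these genes is controlled by E2F factors, which retinoblastoma proteins hold in check until G1 kinases act, with E2F1, E2F2 and E2F3 as activators and E2F7 and E2F8 as repressors. Cells that move through the cycle need the machinery in S phase, so the RNA level of these genes in a culture also follows the share of cells in each phase.

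Library totals ran from 13628508 to 16006880 counts, and a member had between 146 and 4580 counts in a library. Levels are given as CPM, the count per 1e+06 counts of the library, scaled by TMM. Those of the cell type markers below are CPM without this scaling. PAI-1 replicate 2 stood apart from the other libraries with PAI-1 overexpression, with 3.78% of its counts from mitochondrial genes against 4.76% and 5.12%, while the CAF libraries had 5.53% to 5.92%. How Panc-1 was parted from the fibroblasts before RNA extraction is not stated. Among 22 markers of fibroblasts, 14 stayed below 1 CPM in each of the 6 libraries, among them DCN, LUM, COL1A2, PDGFRA, PDGFRB and FAP. The others, COL1A1, COL3A1, COL5A1, COL6A3, TAGLN, FBLN1, FBN1 and S100A4, reached 1 CPM in at least 1 library. The summed level of the 22 was 546 to 564 CPM with CAF and 668 to 775 CPM with PAI-1 overexpression, and the part of this difference in the results below was not tested. All 6 epithelial markers reached 1 CPM in at least 1 library. Their summed level was also higher with PAI-1 overexpression, at 1982 to 2271 CPM against 1826 to 1918 CPM with CAF. The 6 squamous markers stayed below 1 CPM throughout. They were examined because the extraction text speaks of another line, Cal27, and of the compound Stattic. These markers bear on the cell line and not on that treatment, which no other label names.

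The promoters of these genes are known for E2F sites, so the words searched and the DNA around them come first. The E2F-type words were TTTCGCGC, TTTGGCGC, TTTCCCGC and TTTGCCGC on either strand. The window ran from 250 bases before to 50 after the transcription start in RefSeq (GRCh38.p14), and 46 of the 54 members were matched by symbol, with 59 windows. MCM4, MCM5, GINS4, POLD3, RPA2, RPA3, DNA2 and E2F8 had no entry. At least 1 word was found in 24 of the 59 windows (40.7%), against 728 of 15156 windows (4.80%) of tested genes and 1164 of 35116 (3.31%) of all windows. By gene, 6 of the 10 members that rose, 3 of the 8 that fell and 15 of the 28 matched members that were not called held a word.

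Stretches of 200 bases from 5 members, 170 before to 30 after the start, show the words in genes that rose (CDC6 and MCM6), that did not pass the test (MCM2) and that fell (CDC7 and TYMS). Capitals mark E2F-type words, and each stretch is read 5′ to 3′ along the gene.
CDC6: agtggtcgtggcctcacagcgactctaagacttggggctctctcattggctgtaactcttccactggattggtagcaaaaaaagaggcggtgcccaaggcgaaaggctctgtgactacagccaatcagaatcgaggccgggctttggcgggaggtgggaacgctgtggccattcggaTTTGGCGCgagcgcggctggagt
MCM6: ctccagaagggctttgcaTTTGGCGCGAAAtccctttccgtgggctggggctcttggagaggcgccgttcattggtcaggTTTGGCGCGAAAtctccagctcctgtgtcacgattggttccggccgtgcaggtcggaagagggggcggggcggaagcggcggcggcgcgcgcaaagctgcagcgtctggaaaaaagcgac
MCM2: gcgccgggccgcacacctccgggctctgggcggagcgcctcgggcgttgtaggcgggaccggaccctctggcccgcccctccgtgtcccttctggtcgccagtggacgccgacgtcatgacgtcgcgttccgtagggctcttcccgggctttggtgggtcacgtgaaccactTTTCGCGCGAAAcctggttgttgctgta
CDC7: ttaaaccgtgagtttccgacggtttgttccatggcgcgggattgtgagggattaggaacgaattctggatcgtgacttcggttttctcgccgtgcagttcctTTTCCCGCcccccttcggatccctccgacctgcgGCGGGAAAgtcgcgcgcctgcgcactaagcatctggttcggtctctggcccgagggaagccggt
TYMS: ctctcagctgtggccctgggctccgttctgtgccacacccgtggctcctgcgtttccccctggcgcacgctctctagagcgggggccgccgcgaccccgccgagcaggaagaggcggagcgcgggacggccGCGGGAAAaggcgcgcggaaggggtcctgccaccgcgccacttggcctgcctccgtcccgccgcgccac

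The CDC6 stretch lies at chr17:40287709-40287908 (plus strand) and its word begins at base 8 of the transcript. The MCM6 stretch, at chr2:135876414-135876613 (minus strand), has runs of 12 bases that begin 152 and 90 bases before the start, and each run holds 2 overlapping words, 1 per strand. MCM2, at chr3:127598241-127598440 (plus strand), has one such run from base 3 of its transcript. CDC7, at chr1:91500942-91501141 (plus strand), has words 68 and 34 bases before the start on opposite strands, and TYMS, at chr18:657483-657682 (plus strand), has 1 that begins 39 bases before it. Coordinates are those of RefSeq, while the processing notes name the build hg19 and the gene identifiers in the table are those of GENCODE release 29. A match is a description of letters, not a measured site.

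Replication and E2F genes moved little and in both directions. Of the 54 members 10 rose and 8 fell at an edgeR adjusted p under 0.05, and 36 did not pass. That is 33.3% called, where 32.2% of the 14960 tested genes were called. By direction, 17.2% of all tested genes rose and 15.0% fell. With the main filter the share of members called is close to this background, so that their number alone is no result about replication genes. The background itself depends on the filter. When 10 CPM on average was required, 21.9% of the 9610 genes then tested were higher and 21.4% lower, beside 10 and 10 members. The members' median log2 fold change was 0.04, beside -0.0015 over all tested genes. No member reached 1.5-fold either way, which 12.5% of tested genes did. The members were also more highly expressed, with a median of 44.8 CPM with CAF beside 21.6 CPM over all tested genes. Their median standard error was 0.077 beside 0.102, and the part of this in the comparison was not tested. Log2 fold changes of members ran from -0.34 (DBF4) to 0.52 (CDC6), with standard errors from 0.054 to 0.14.

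In all 18 called members the 3 libraries of one group lay wholly above or below those of the other. The same held for 4582 of the 4810 called genes among all tested genes, so it sets the members little apart. Over all members, 15 were higher and 11 lower without overlap, where 43.4% of tested genes did not overlap (22.3% higher and 21.1% lower). Library size alone, which takes no account of composition, gave 8 higher and 14 lower members, and turned the balance of all tested genes the same way, to 12.3% higher and 21.3% lower. Leaving out PAI-1 replicate 1 left 7 members higher and 5 lower (15.3% and 13.7% of all tested genes). Without PAI-1 replicate 2, the library that stood apart, there were 10 and 10 (15.8% and 14.4%). Summed over the 54 genes, the level was 3704, 3709.8 and 3611 CPM with CAF and 3819, 3739 and 3679 CPM with PAI-1 overexpression. These sums overlap between the groups.

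**Figure D1:**
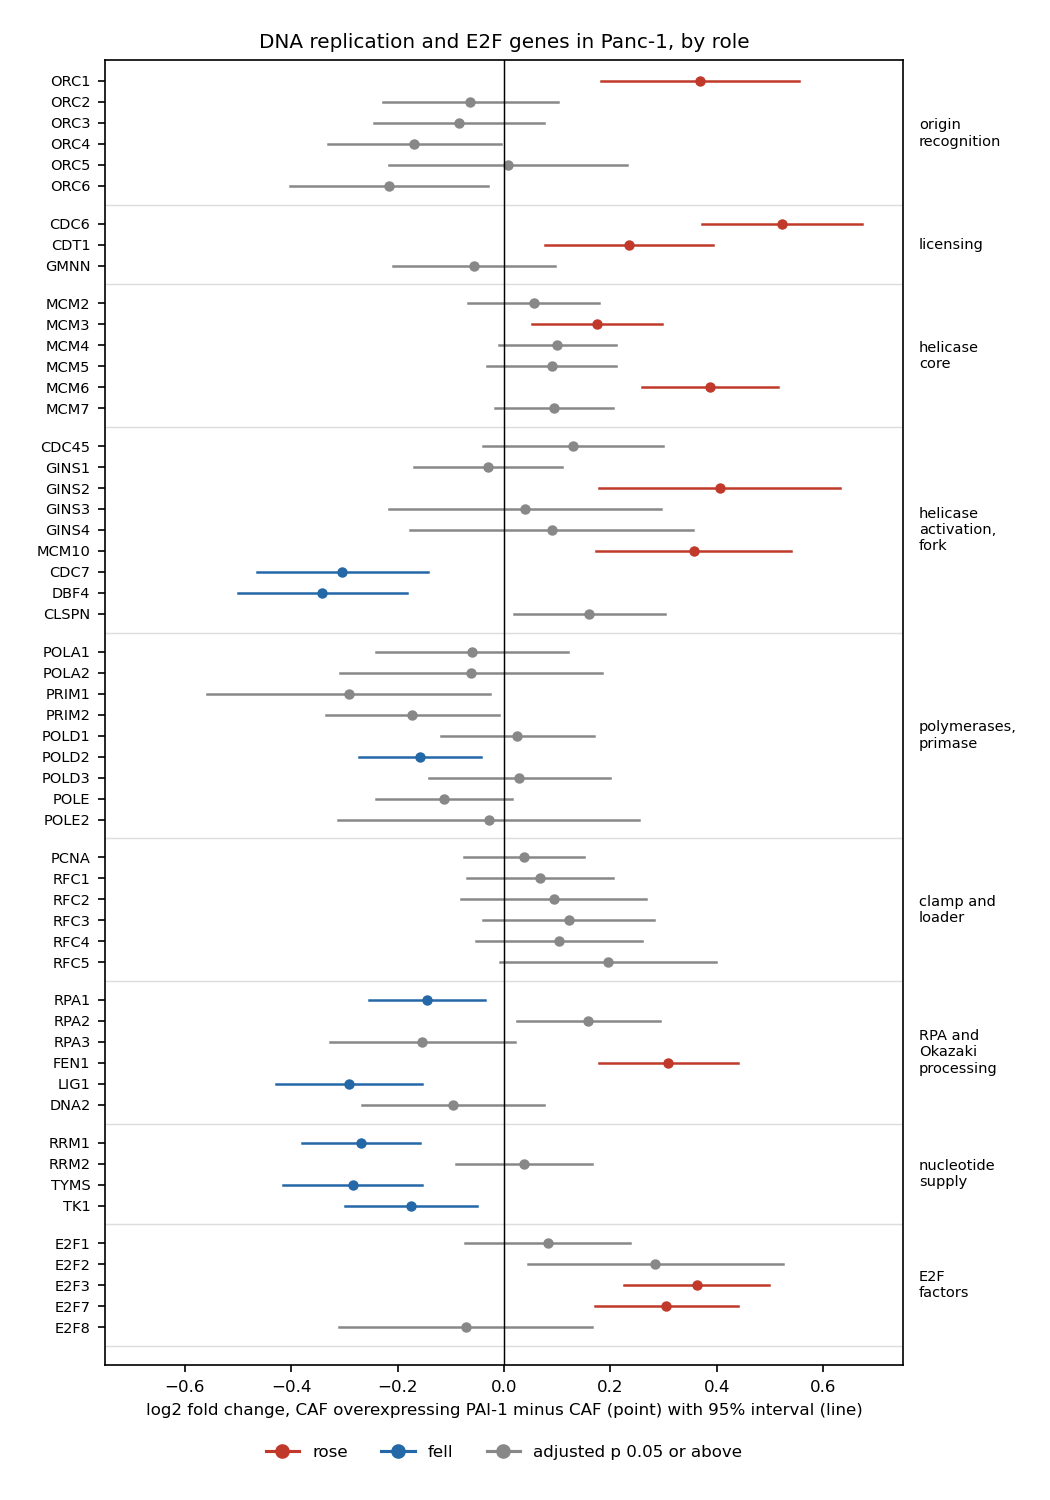
Log2 fold change of each of the 54 members (points, x axis; CAF overexpressing PAI-1 minus CAF; red rose, blue fell, grey not called) with its 95% interval (lines) from the edgeR fit of 3 against 3 libraries, ordered by role along the y axis. The 10 members that rose lie mostly among licensing, helicase and E2F genes, and the 8 that fell include 3 of the 4 nucleotide supply genes and the kinase pair CDC7 and DBF4. Of all tested genes 17.2% rose and 15.0% fell.

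Licensing genes held the largest rise. CDC6, the ATPase that joins ORC at the origin to load the helicase, stood at 54.01, 50.3 and 47.0 CPM in the CAF libraries and at 79.8, 70.7 and 67.0 CPM in those with PAI-1 overexpression. Every library with PAI-1 overexpression was above every CAF library, by a fitted 1.44-fold (log2 fold change 0.52, SE 0.074, edgeR adjusted p = 9.6e-07). CDC6 (ENSG00000094804) lies on chromosome 17, from 40287633 to 40304657 on the plus strand in GENCODE release 29. It was the only member called against a threshold of 1.2-fold, where 5.53% of all tested genes were higher and 5.23% lower.

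CDT1, the partner of CDC6 in loading, had 36.3, 39.1 and 34.8 CPM with CAF and 44.5, 44.0 and 41.4 CPM with PAI-1 overexpression. The rise was smaller than for CDC6 (log2 fold change 0.235, SE 0.077, edgeR adjusted p = 0.0182), and it was not called with library size alone, with the offset for GC content and length, or without CAF replicate 1, CAF replicate 3 or PAI-1 replicate 1. GMNN, the inhibitor of CDT1, was at 48.0 ± 3.08 and 46.2 ± 2.72 CPM (SD, n = 3 each) and did not pass, with a log2 fold change of -0.06 and a 95% interval from -0.21 to 0.10. Of these 3 genes, then, both loading factors were higher and the inhibitor overlapped between the groups.

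Within the origin recognition complex 1 of 6 subunits was called, where 32.2% of all tested genes were called. ORC1, whose level is known to vary over the cycle, had 23.7, 25.1 and 21.8 CPM with CAF and 32.6, 28.2 and 30.3 CPM with PAI-1 overexpression. The groups did not overlap, and ORC1 rose by 0.37 on the log2 scale (SE 0.092, edgeR adjusted p = 0.00204). ORC2, ORC3, ORC4 and ORC5, core subunits of the complex, had log2 fold changes of -0.06, -0.08, -0.17 and 0.0078. ORC6, the smallest subunit, had -0.22 with a 95% interval from -0.40 to -0.03 (edgeR adjusted p = 0.0684), and its groups did not overlap, with 28.3 to 35.4 CPM with CAF and 26.1 to 28.0 CPM with PAI-1 overexpression. ORC6 was called lower with library size alone, with a mean of 10 CPM as filter, with an offset for length and GC content, and when CAF replicate 2 was left out.

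All 6 subunits of the MCM2-7 helicase had values above 0, of which MCM6 and MCM3 rose, where 17.2% of all tested genes rose. MCM6 had 73.5, 75.2 and 76.7 CPM with CAF and 104, 97.3 and 93.4 CPM with PAI-1 overexpression. These values do not overlap, and the difference of 0.39 on the log2 scale (SE 0.063, edgeR adjusted p = 1.0e-05) is the largest of the 6. MCM6 (ENSG00000076003) lies on the minus strand of chromosome 2, from 135839626 to 135876426. MCM3 had 171, 168 and 151 CPM with CAF and 196, 186 and 172 CPM with PAI-1 overexpression, a rise of 0.18 (SE 0.060, edgeR adjusted p = 0.0232) that was not called with library size alone or without CAF replicate 3 or PAI-1 replicate 1.

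MCM2, MCM4, MCM5 and MCM7 missed the threshold, with log2 fold changes of 0.06, 0.10, 0.09 and 0.09, and MCM2 turned to -0.01 with library size alone. MCM4 and MCM7 were higher in every library with PAI-1 overexpression than in any CAF library, with 219 to 226 against 229 to 251 CPM and 247 to 278 against 280.3 to 285 CPM. The RNAs of the subunits, which assemble in equal numbers, were not equally abundant. Per kilobase of the longest coding transcript, levels with CAF ranged from 20.1 CPM per kb (MCM6) to 85.9 CPM per kb (MCM7), a ratio of 4.27. With PAI-1 overexpression they ranged from 26.3 CPM per kb to 91.8 CPM per kb for the same genes, a ratio of 3.49. Per kilobase of all exons the lowest subunit was MCM5 in both groups and the ratios were 3.96 and 3.97, so both the order at the low end and the narrower range depend on the length used.

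**Figure D2:**
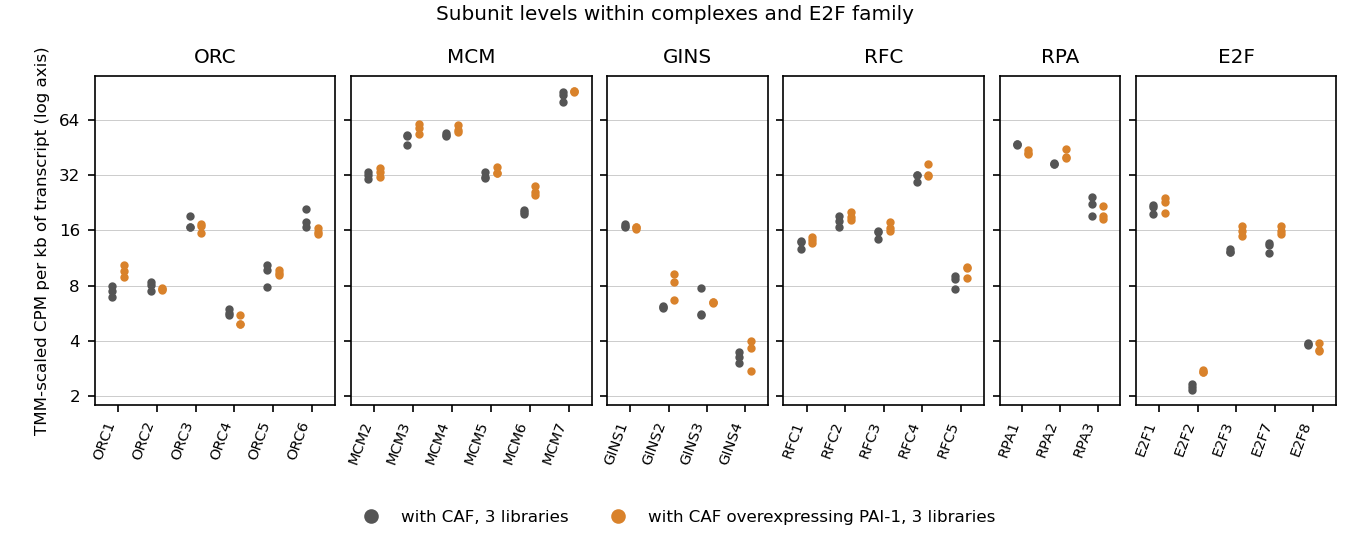
TMM-scaled CPM per kilobase of the longest coding transcript (y axis, log scale) of the subunits of ORC, MCM2-7, GINS, RFC and RPA and of 5 E2F factors, 1 point per library with CAF (grey) or CAF overexpressing PAI-1 (orange). MCM6, ORC1, E2F3 and E2F7 lie higher with PAI-1 overexpression and RPA1 lower, and MCM6 is the lowest and MCM7 the highest of the helicase subunits in both groups.

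Genes that turn the loaded helicase into a fork moved in opposite directions. DBF4, the activating subunit of the CDC7 kinase, had 40.1, 44.3 and 41.4 CPM with CAF and 32.6, 32.9 and 33.8 CPM with PAI-1 overexpression. It had the largest fall of all members, with a log2 fold change of -0.34 (SE 0.078, edgeR adjusted p = 0.000855). Its catalytic partner CDC7 had 39.8, 37.9 and 38.1 CPM with CAF and 31.0, 31.0 and 31.8 CPM with PAI-1 overexpression, and fell by 0.30 on the log2 scale (SE 0.079, edgeR adjusted p = 0.00306). Both subunits of this kinase were thus lower. DBF4 (chromosome 7, 87876216 to 87909541, plus strand) shares 142 bases of exon with SLC25A40 on the other strand, a gene that also fell (log2 fold change -0.36), and whether reads were counted by strand is not stated.

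GINS2, a subunit of the helicase-bound GINS complex, and MCM10, which acts at helicase activation, rose. GINS2 had 16.3, 16.6 and 16.1 CPM with CAF and 24.6, 22.4 and 17.9 CPM with PAI-1 overexpression (log2 fold change 0.41, SE 0.11, edgeR adjusted p = 0.00494). Its lowest library with PAI-1 overexpression lay close to the CAF libraries, and without PAI-1 replicate 1 the gene was not called. MCM10 had 24.9, 28.9 and 28.4 CPM with CAF and 39.1, 32.6 and 33.3 CPM with PAI-1 overexpression (0.36, SE 0.090, edgeR adjusted p = 0.0024). The other GINS subunits had log2 fold changes of -0.03 (GINS1), 0.04 (GINS3) and 0.09 (GINS4), and CDC45, the third part of the active helicase, had 0.13. CLSPN, an adaptor of the checkpoint kinase CHK1 at the fork, was at 53.1 to 59.98 CPM with CAF and 60.1 to 65.5 CPM with PAI-1 overexpression, with a log2 fold change of 0.16 that did not pass (edgeR adjusted p = 0.0773).

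Of 9 polymerase and primase genes 1 fell and 8 did not pass, where 15.0% of all tested genes fell. POLD2, the accessory subunit of DNA polymerase delta, was the one called, with 131, 128.4 and 131 CPM with CAF and 114, 119 and 117 CPM with PAI-1 overexpression. Its groups did not overlap, but the difference was small (log2 fold change -0.16, SE 0.057, edgeR adjusted p = 0.0307) and was not called under 7 of 17 alternatives, among them the omission of any single library other than PAI-1 replicate 2. PRIM1 and PRIM2, the primase subunits, had -0.29 and -0.17 (edgeR adjusted p = 0.0869 and 0.0988). PRIM1 was called lower without PAI-1 replicate 2, and both were with library size alone. The catalytic subunits POLA1, POLD1 and POLE had -0.06, 0.03 and -0.11, and the accessory subunits POLA2, POLD3 and POLE2 had -0.06, 0.03 and -0.03.

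Of the 6 genes of the sliding clamp and its loader 0 were called by edgeR, DESeq2 or limma-voom, and 0 had an unadjusted p under 0.05 by any of the 3. By edgeR 32.2% of all tested genes were called, and 6178 of 14960 had an unadjusted p under 0.05. The 3 methods used the same libraries, so they are not independent. PCNA, the clamp that holds polymerases on DNA, had 157, 168 and 153 CPM with CAF and 164, 163 and 164 CPM with PAI-1 overexpression. The groups overlapped and the 95% interval of its log2 fold change, 0.04, ran from -0.08 to 0.15. Per kilobase of transcript PCNA was the most abundant member in both groups, at 117 and 120.3 CPM per kb, while E2F2 was the least, at 2.24 and 2.73 CPM per kb. The lowest rank depends on the length used. Per kilobase of all exons GINS4 was the least with PAI-1 overexpression, at 2.45 CPM per kb. RFC5, the loader subunit with the smallest p, had 21.97, 18.8 and 21.3 CPM with CAF and 21.6, 24.6 and 24.9 CPM with PAI-1 overexpression, which overlap (0.20, SE 0.0995, edgeR adjusted p = 0.135). RFC1, RFC2, RFC3 and RFC4 had 0.07, 0.09, 0.12 and 0.10, so that all 6 genes of this role had values above 0 without a call. With library size alone PCNA turned to -0.03.

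Genes that finish Okazaki fragments went opposite ways. FEN1, the flap nuclease that removes primers, had 75.6, 84.0 and 77.4 CPM with CAF and 94.4, 103 and 96.5 CPM with PAI-1 overexpression. It rose by 0.31 on the log2 scale (SE 0.064, edgeR adjusted p = 0.000265), with no overlap between the groups. LIG1, the ligase that seals the nick FEN1 leaves, had 65.0, 64.8 and 62.4 CPM with CAF and 53.3, 52.0 and 51.7 CPM with PAI-1 overexpression, and fell by 0.29 (SE 0.067, edgeR adjusted p = 0.000941). Exons of FEN1 share 49 bases with FADS2, which fell (log2 fold change -0.80), and 166 with TMEM258 (0.0057). DNA2, a nuclease and helicase for long flaps, had -0.10 and did not pass.

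Replication protein A coats single-stranded DNA as a trimer. Its large subunit gene RPA1 had 205, 205 and 203 CPM with CAF and 183, 181 and 191.1 CPM with PAI-1 overexpression, and fell by 0.14 (SE 0.054, edgeR adjusted p = 0.0362). RPA2 had 64.3 to 65.4 CPM with CAF and 69.5 to 77.3 CPM with PAI-1 overexpression, with a log2 fold change of 0.16 that did not pass (edgeR adjusted p = 0.0658), and RPA3 had -0.15 with overlapping groups and was called lower without CAF replicate 1 or PAI-1 replicate 2. The RPA1 call was lost without any filter, and without CAF replicate 1, 2 or 3 or PAI-1 replicate 1.

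Of 4 genes of deoxynucleotide supply 3 fell, where 15.0% of all tested genes fell, and RRM2 did not pass. With so few genes in a role, such counts are a description. RRM1, the large subunit of ribonucleotide reductase, had 226, 230.5 and 214 CPM with CAF and 183, 190.3 and 184 CPM with PAI-1 overexpression. It had the smallest p of the members that fell (log2 fold change -0.27, SE 0.054, edgeR adjusted p = 0.000201). RRM2, the small subunit, which is degraded outside S phase, had 134, 149 and 145 CPM with CAF and 160.2, 134 and 144 CPM with PAI-1 overexpression. Its groups overlapped, with a log2 fold change of 0.04 and a 95% interval from -0.09 to 0.17.

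TYMS, thymidylate synthase, had 89.9, 85.2 and 90.2 CPM with CAF and 69.9, 71.5 and 76.4 CPM with PAI-1 overexpression (log2 fold change -0.28, SE 0.064, edgeR adjusted p = 0.000691). Exons covering 39.1% of its annotated exon length overlap ENOSF1 on the other strand, which had 0.12 and did not pass. TK1, the cytosolic thymidine kinase of the salvage route, had 119, 119.8 and 114 CPM with CAF and 96.9, 112 and 104 CPM with PAI-1 overexpression (-0.17, SE 0.061, edgeR adjusted p = 0.0272). The TK1 call was lost without PAI-1 replicate 1 or 3 or CAF replicate 1 or 2, and without a filter. Summed over the 4 genes, the level was 563 to 584 CPM with CAF and 508 to 510.3 CPM with PAI-1 overexpression. Such separation was not particular to this role. Sums of the licensing, helicase core, polymerase and primase, clamp and loader, and E2F genes did not overlap between the groups either. Those of the remaining roles overlapped.

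**Figure D3:**
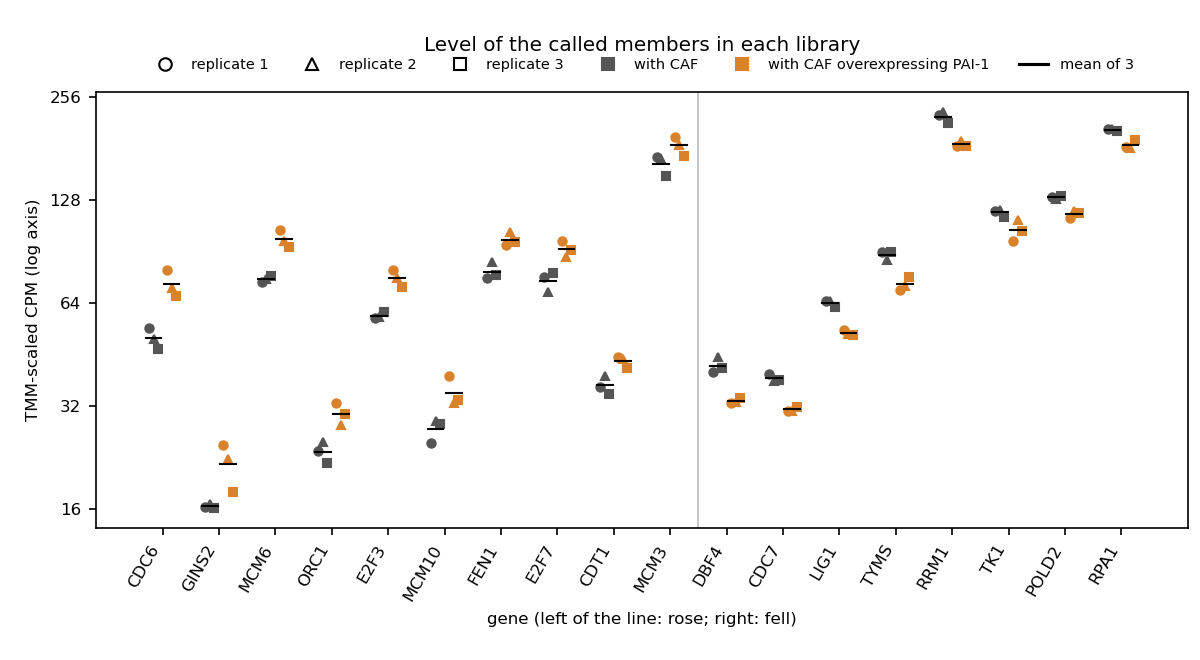
TMM-scaled CPM (y axis, log scale) of the 18 called members in each library, with CAF (grey) or CAF overexpressing PAI-1 (orange), symbols by replicate number and bars at the mean of 3 libraries. CDC6 shows the largest rise, GINS2 has 1 library with PAI-1 overexpression close to the CAF level, and RRM1, LIG1, CDC7 and DBF4 do not overlap and are lower with PAI-1 overexpression.

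Among the 5 E2F factors 2 rose, 1 activator and 1 repressor, where 17.2% of all tested genes rose. E2F3, an activator, had 57.9, 58.1 and 60.3 CPM with CAF and 79.9, 75.5 and 71.2 CPM with PAI-1 overexpression, a rise of 0.36 (SE 0.067, edgeR adjusted p = 6.39e-05). E2F7, an atypical repressor that is itself an E2F target, had 76.0, 68.7 and 78.5 CPM with CAF and 97.1, 87.4 and 91.1 CPM with PAI-1 overexpression, a rise of 0.31 (SE 0.066, edgeR adjusted p = 0.00048). Neither gene overlapped between the groups. E2F1, the most abundant of these 5 factors per kilobase at 21.0 CPM per kb with CAF, had 55.0, 49.3 and 53.4 CPM with CAF and 60.5, 56.9 and 49.6 CPM with PAI-1 overexpression, which overlap (0.08, 95% interval -0.07 to 0.24). E2F2 was higher without overlap, at 11.2 to 12.1 against 14.02 to 14.4 CPM, and did not pass (0.28, edgeR adjusted p = 0.0632), and E2F8, the other repressor, had -0.07.

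The 36 members that did not pass were measured closely enough to bound their change. All 36 intervals at 95% lay within 1.5-fold either way, and 18 lay within 1.2-fold. The bound farthest from 0 was the lower bound of PRIM1, -0.56 on the log2 scale. Of the 36, 7 had an unadjusted p under 0.05 and 8 did not overlap between the groups. Over all 14960 tested genes 6178 had an unadjusted edgeR p under 0.05, of which 4810 were called. Without overlap were 6486 tested genes, of which 4582 were called. These counts of uncalled members are therefore no result about replication genes.

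Among 46 other genes of replication and of E2F control, 11 rose and 15 fell, which is 56.5% called, beside 32.2% of all tested genes. This list was chosen with earlier results of these data known, so its share is a description. Their median log2 fold change was -0.0042 and their median absolute log2 fold change 0.24, beside 0.14 in the members and 0.21 over all tested genes. The median level over all tested genes was lower than in the members, as given above. CCNE1 and CCNE2, the E-type cyclins that drive entry into S phase, both rose. CCNE1 was at 17.1 ± 0.79 CPM with CAF and 33.9 ± 2.07 CPM with PAI-1 overexpression (SD, n = 3 each), a log2 fold change of 0.98. CCNE2 was at 6.79 ± 1.04 and 15.8 ± 2.05 CPM, a log2 fold change of 1.22. CTPS1, an enzyme of CTP synthesis, rose by 0.52. CCNA2, the cyclin of S phase and G2, went from 87.9 ± 6.25 to 47.9 ± 1.68 CPM (SD, n = 3 each; -0.88, SE 0.069, edgeR adjusted p = 4.39e-12). TICRR, which brings the initiation factor TOPBP1 to the loaded helicase, went from 50.8 ± 2.65 to 26.8 ± 3.998 CPM (-0.92, SE 0.089, edgeR adjusted p = 4.82e-10), and LIN9, a subunit of the MuvB complex, had -0.54.

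The other E2F factors, their dimer partners and the retinoblastoma family in that list were singled out after their values were seen. The 3 retinoblastoma family genes RB1, RBL1 and RBL2 fell, with log2 fold changes of -0.24, -0.30 and -0.32, where 15.0% of all tested genes fell. E2F4 and E2F6, which act mainly in repression, rose by 0.24 and 0.41, while E2F5 had 0.28 and did not pass (edgeR adjusted p = 0.0723). Of the dimer partners of E2F factors, TFDP2 fell, with -0.35, and TFDP1 had 0.11 and did not pass (edgeR adjusted p = 0.157).

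Genes of G2 and mitosis and of S phase repair serve as lists to compare. Both lists were chosen with earlier results of these data known, so their shares are a description. Of 32 genes of G2 and mitosis 32 fell, where 15.0% of all tested genes fell. Their median log2 fold change was -0.79, against 0.04 in the replication members. CENPE, a kinetochore motor, had -1.15 and PLK1, a mitotic kinase, -1.03. Of 22 genes of S phase repair and checkpoint 21 were tested, 1 rose and 5 fell, with a median of -0.11, and the 28.6% called is close to the 32.2% of all tested genes. MSH6, a mismatch repair gene, rose by 0.42 and UBE2T, of the Fanconi pathway, had -0.40. The difference between the lists was not tested, since genes of a list are not replicates. In bulk RNA fewer or more cells in a phase and a change in RNA per cell cannot be told apart.

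**Figure D4:**
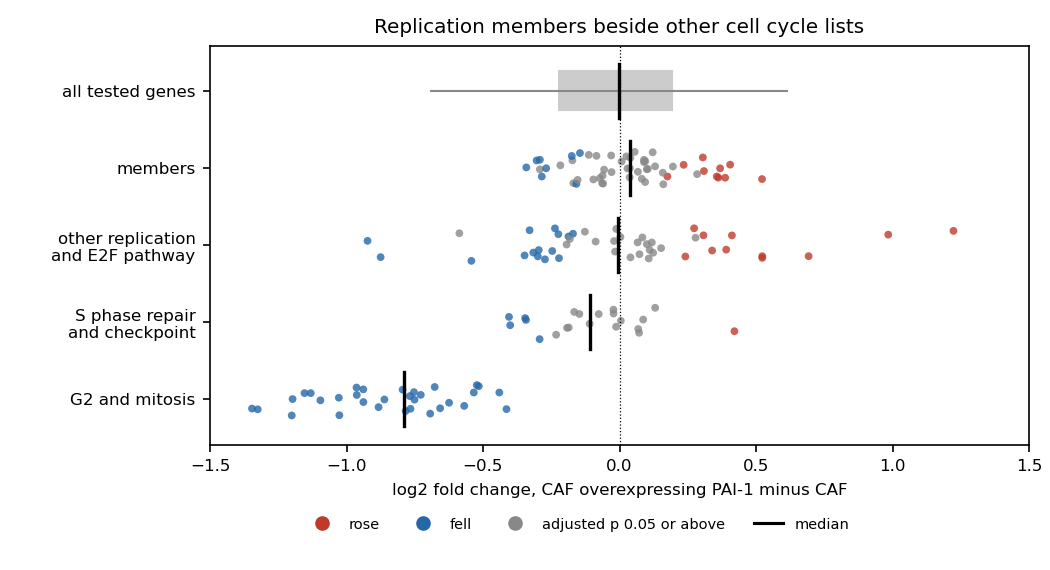
Log2 fold change (x axis; CAF overexpressing PAI-1 minus CAF) of replication members, other pathway genes, S phase repair genes and G2 and mitosis genes, 1 point per tested gene (red rose, blue fell, grey not called), black bars at the medians; for all tested genes the box holds the middle 50% and the line runs from the 5th to the 95th percentile. Members lie around 0.04 and within 0.6 of 0, while the 32 genes of G2 and mitosis lie from -1.35 to -0.41.

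The lists also differed in the share of promoters with another word. The CHR-type word TTTGAA (on either strand), named for the cell cycle genes homology region through which MuvB complexes act, was in 25 of 34 windows (73.5%) of the G2 and mitosis list and in 3 of 59 windows (5.08%) of the members. Windows of tested genes held it in 1553 of 15156 cases (10.2%), and all windows in 15.2%. The members with this word were E2F3, which rose, and DBF4 and RRM1, which fell. The E2F-type words were in 4 of 34 windows (11.8%) of the G2 and mitosis list. Among members, the median log2 fold change was 0.05 for 24 genes with an E2F-type word and 0.02 for 22 without, a difference of the medians that was not tested.

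**Figure D5:**
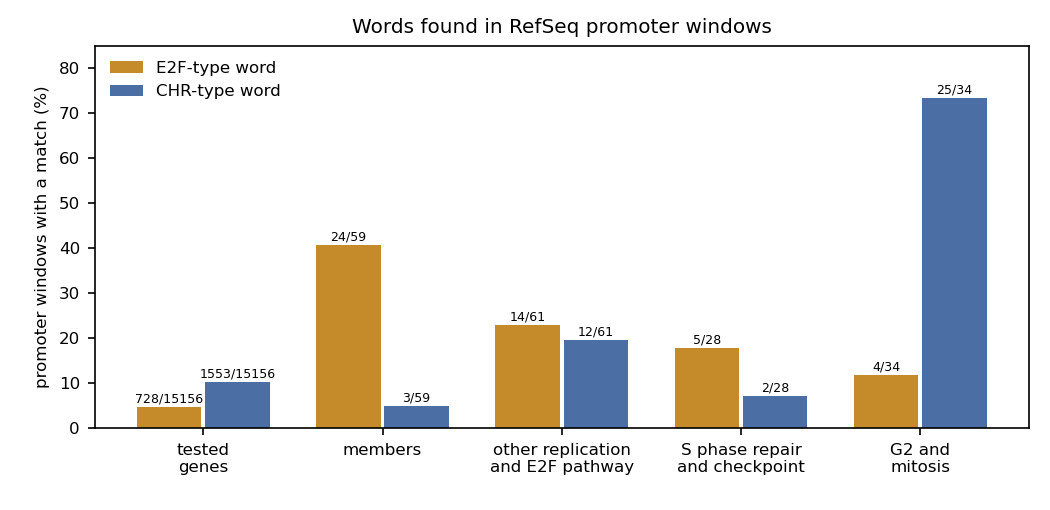
Share of RefSeq promoter windows of 300 bases (y axis, percent) that hold an E2F-type word (ochre) or the CHR-type word (blue) for tested genes, members and 3 other lists, with the windows holding a word and all windows of the list above each bar. The members stand at 40.7% for the E2F-type words and the G2 and mitosis list at 73.5% for the CHR-type word.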

How the data were processed

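The authors deposited whole-number counts for each gene and library in 1 table. Per the submitters' processing notes, RSEM, Bowtie2, BWA and the build hg19 were used, with neither versions nor roles. The treatment of strand and of overlapping genes was not given in those notes. RNA was selected with oligo-dT beads, per the labels' protocols. Of the gene names, 27 that had become dates were restored through identifiers. Counts were tested with edgeR 4.0.16 (R 4.3.3): filterByExpr (minimum count 10, minimum total 15), TMM scaling, robust quasi-likelihood fit, all 6 libraries, no covariates, Benjamini-Hochberg over 14960 genes, threshold 0.05. "Rose" and "fell" are used of calls alone. The standard error is the unshrunken log2 fold change over the square root of F. The replicates are labelled biological, with nothing on separate cultures, so the p-values reflect only the spread among the libraries. No pair of libraries was a copy (chi-square per degree of freedom 2.58 to 9.51). The tests were tried on simulated data.

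The members and lists were chosen with earlier results of these data known. The rule for values in every library took the member with the smallest p of each of 9 roles and the 4 with the smallest p in each direction. The other called members, and PCNA, RRM2 and E2F1, which were not called, are given in the same way outside that rule, chosen after their values were seen. Of the other pathway genes the 3 with the smallest p in each direction are named, and of the repair and mitosis lists 2 each. Some results are not reported here. As alternatives, scaling by RLE or by library size alone, no filter or a mean of at least 10 CPM, DESeq2 1.42.0, limma-voom (3.58.1), a fit without robust estimation, glmTreat at 1.2-fold, the replicate number as a block, an offset for GC content and length (5 spline terms each) and the omission of each library were run.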

Additional observations from a re-analysis of the deposited data

How the results depend on the processing

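No called member changed direction under any of the 17 alternatives run. RLE scaling, DESeq2, limma-voom, the fit without robust estimation and the replicate block kept the same 18 calls. With library size alone 14 members were lower, beside 21.3% of all 14960 genes tested. Without a filter on low counts 5 were lower, beside 6.72% of the 30170 genes then tested. Against a threshold of 1.2-fold (edgeR's glmTreat) 1 member was higher and 0 lower at an adjusted p under 0.05. Over all tested genes 828 (5.53%) were higher and 783 (5.23%) lower by the same measure. At an unadjusted glmTreat p under 0.05 the members numbered 5 and 0, for which the share over all genes was not counted. With the GC and length offset CLSPN, E2F2 and ORC6 were called and CDT1 was not. Leaving out single libraries gave 7 to 10 members higher and 5 to 10 lower, beside 14% to 15.8% and 12% to 14.4% of all genes then tested.

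Members that did not pass and lay near 0 changed sign in places. With library size alone, which moved the median of all genes by -0.067, log2 fold changes were -0.0293 for PCNA, -0.0292 for RRM2, -0.0114 for MCM2, -0.0419 for POLD1, -0.0369 for POLD3, -0.0585 for ORC5 and -0.0265 for GINS3. ORC5 had -0.014 with a mean of 10 CPM, and with the GC and length offset ORC5 had -0.0071 and POLD1 -0.0264, or -0.0052 and -0.0264 with the replicate block added. Over single libraries left out, values ran from -0.0357 to 0.0918 (RRM2), -0.0641 to 0.0904 (POLD3), -0.104 to 0.0925 (ORC5), -0.0425 to 0.2225 (GINS3), -0.169 to 0.0262 (POLA2), -0.128 to 0.128 (POLE2), -0.0311 to 0.053 (POLD1) and -0.0293 to 0.2245 (GINS4).

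With the replicate number as a block 10 members were higher and 8 lower, beside 18.1% and 15.8% of all tested genes. The labels do not say whether the numbers pair the libraries. Deviations from group means correlated at 0.0023 to 0.0122 for same-numbered libraries and at -0.0103 to 0.0047 for others. Correlations this small cannot show whether the cultures were paired. In the last 150 bases of the promoter window 37.3% of members' windows held an E2F-type word. Standard errors of members ran from 0.054 (RPA1) to 0.14 (POLE2), which limits the size of change that could be called.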
